A study of Homo sapiens with 6 samples.

Results

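The insulin-like growth factor (IGF) binding proteins IGFBP1 to IGFBP7 and the receptors IGF1R, IGF2R and INSR were followed in 231-BR cells and their parental MDA-MB-231 cells. The genes were chosen by name, and expression was obtained for 9 of the 10, which are 6 binding proteins and 3 receptors among 17039 genes. IGFBP2 was not analysed here. MDA-MB-231 is a human triple-negative breast cancer line, and 231-BR is the variant of it that was selected for metastasis to the brain. Poly(A) RNA of 3 samples of each line was sequenced, with no treatment. The growth medium of 231-BR cells contained the selection drug G418 and that of MDA-MB-231 cells did not, so a difference between the lines cannot be told apart from one between the media, and serum was present in both. The study calls the 3 samples of a line parallel replicates and does not say whether they were separate cultures. The p-values therefore measure only the spread between these samples, which may be technical.

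IGF1 and IGF2 signal through IGF1R, a receptor tyrosine kinase that drives growth and survival, and insulin signals through the closely related INSR, with which IGF1R also forms hybrid receptors. IGF2R, also called the cation-independent mannose 6-phosphate receptor, has no kinase domain. It takes up IGF2 for degradation and carries newly made hydrolases to lysosomes. The secreted binding proteins IGFBP1 to IGFBP6 hold IGFs with high affinity and can withhold them from the receptors or deliver them, whereas IGFBP7 binds IGFs weakly. Several of them also act on cells without IGF, and proteases such as pappalysin release the bound growth factor.

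Expression was given as FPKM, in which fragments are scaled by the length of the transcript and by the size of the library, so levels of different genes can be set side by side. Values after ± are SDs over the 3 libraries of a line. The depth of the libraries is unknown. The summed FPKM ran from 465020 to 472007 in the 231-BR libraries and from 486937 to 496420 in the MDA-MB-231 libraries, and no library stood apart: over all pairs within a line, the correlation of log2 values across genes was at least 0.9966. Both lines expressed the mesenchymal marker VIM, at a mean of 2553 FPKM in 231-BR and 2306 FPKM in MDA-MB-231 cells. The other genes of the marker list for triple-negative lines of mesenchymal type had lower means in 231-BR cells. CD44 had 181 FPKM in 231-BR and 251 FPKM in parental cells, KRT8 176 and 237 FPKM, and KRT18 273 and 352 FPKM. Of the epithelial markers, EPCAM had means of 8.70 and 5.06 FPKM, and CDH1 0.00667 and 0.0133 FPKM. Of the hepatocyte markers, APOA1 had means of 0.247 and 0 FPKM, and ALB 0.02 and 0 FPKM. No library had more than 0.16 FPKM of PTPRC and CD3E (leukocytes), CDH5 and VWF (endothelial cells) and RBFOX3, GFAP and AQP4 (neurons and glia). The other genes measured of those lists exceeded this level in at least 1 library: CD68 had means of 82.9 FPKM in 231-BR and 63.5 FPKM in parental cells, MBP 21.0 and 13.6 FPKM, KDR 1.52 and 0.523 FPKM, PECAM1 0.42 and 0.183 FPKM, and SNAP25 0.0533 and 0.203 FPKM. The part of these genes in the results was not tested. Of the receptors whose absence defines triple-negative cells, PGR and ESR1 stayed under a mean of 1 FPKM in both lines, whereas ERBB2 had means of 9.88 and 4.95 FPKM. For the comparison of the lines, log2(FPKM + 0.1) was tested with limma, with Benjamini-Hochberg adjustment over 13465 genes, those whose mean over all libraries reached 0.1 FPKM. On this scale the change of genes with a low FPKM is understated.

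Of the 9 genes, 8 were higher in 231-BR cells and 1, IGF2R, was lower, each with an adjusted p under 0.05 from limma. An adjusted p under 0.05 was common, however: it was reached by 77.3% of all genes tested, with 44.4% higher and 32.9% lower. For none of the 9 genes did the libraries of the lines overlap, which was also so for 78.4% of all genes tested, 44.9% with all 231-BR libraries higher and 33.5% with all of them lower. With the criteria that the study set for its differentially expressed genes (DEGs), which were a log2 fold change beyond 1 in either direction at an adjusted p under 0.05 and, as read here, means of 1 FPKM or more in each line, 4 of the 9 genes were DEGs, and all 4 were binding proteins that were higher in 231-BR cells: IGFBP1, IGFBP3, IGFBP4 and IGFBP7. These criteria were met by 6.45% of all genes tested, 4.68% (630 genes) with higher and 1.77% (238 genes) with lower expression. The study, which used a count model, reported fewer higher and more lower DEGs than this. IGFBP3, IGFBP4 and IGFBP7 are in a hub gene group that the study chose on these libraries, and that choice makes their direction no separate evidence. The 9 genes had a median log2 fold change of 1.07, or of 0.97 for the 8 genes without IGFBP5, whose fitted value depends on the pseudocount. For all genes tested the median was 0.08.

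**Figure D1:**
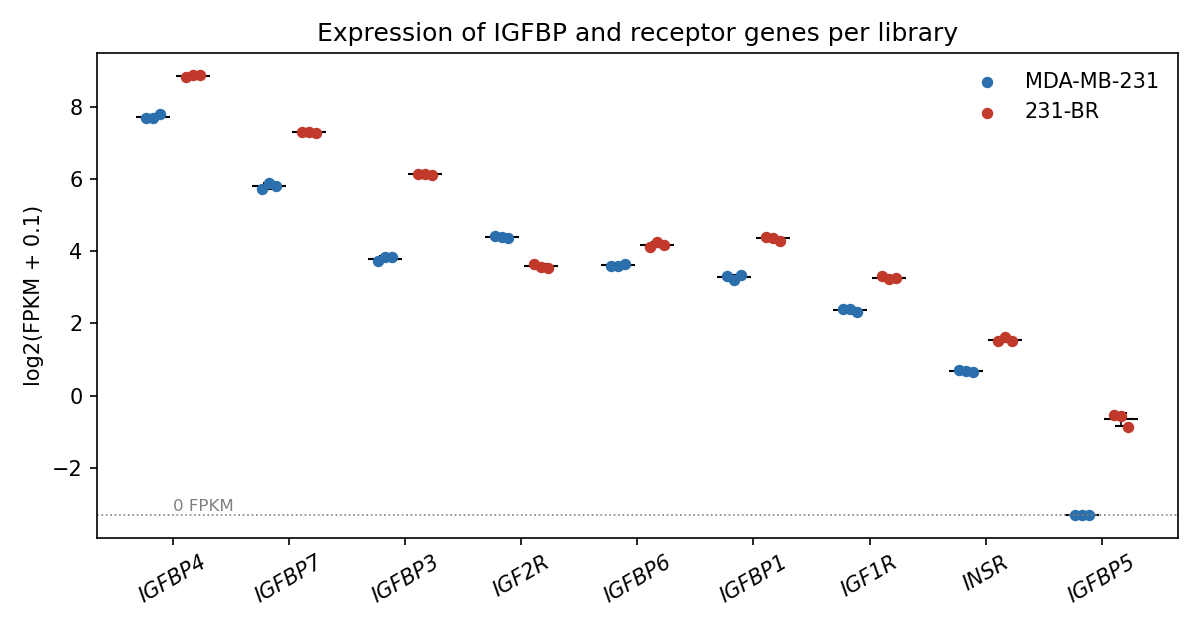
Expression of the 9 genes in each library on the scale log2(FPKM + 0.1), ordered by their mean; points are single libraries (3 per line), and the black bars give the mean and the SD. The 231-BR libraries lie above the MDA-MB-231 libraries for every gene but IGF2R, where they lie below, and IGFBP5 is listed at 0 FPKM in the MDA-MB-231 libraries.

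The promoter sequences of the gene with the largest fold change among these 4 DEGs (IGFBP3), of the most expressed gene (IGFBP4) and of the gene that was lower in 231-BR cells (IGF2R) are shown as the 250 bases before the transcription start, from the RefSeq promoters on GRCh38.p14. They matched 8 of the 10 genes by symbol, IGFBP2 included, and were read 5′ to 3′ on the strand of the gene. For several genes, though not for IGF1R, the RefSeq start differs from the end of the GENCODE gene given below. The window of IGFBP3 thus lies within the GENCODE gene and shares 2 bases with its exons, and 231 bases of the IGFBP6 window lie in exons of IGFBP6. Capitals mark the TATA box sequences TATAAA and TATATA and the palindrome CACGTG, an E-box. The window of IGFBP3 is chr7:45921273-45921522 on the minus strand, that of IGFBP4 is chr17:40443200-40443449 on the plus strand, and that of IGF2R is chr6:159968832-159969081 on the plus strand.
IGFBP3: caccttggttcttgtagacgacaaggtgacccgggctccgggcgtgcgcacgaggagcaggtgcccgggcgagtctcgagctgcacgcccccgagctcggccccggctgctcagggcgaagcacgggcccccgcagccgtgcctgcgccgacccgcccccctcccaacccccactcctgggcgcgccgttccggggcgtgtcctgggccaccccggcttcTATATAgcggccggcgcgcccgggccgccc
IGFBP4: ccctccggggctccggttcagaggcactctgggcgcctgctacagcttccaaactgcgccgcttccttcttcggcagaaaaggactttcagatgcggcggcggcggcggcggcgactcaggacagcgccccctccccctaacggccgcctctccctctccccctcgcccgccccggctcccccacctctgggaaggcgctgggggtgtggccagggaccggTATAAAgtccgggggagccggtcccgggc
IGF2R: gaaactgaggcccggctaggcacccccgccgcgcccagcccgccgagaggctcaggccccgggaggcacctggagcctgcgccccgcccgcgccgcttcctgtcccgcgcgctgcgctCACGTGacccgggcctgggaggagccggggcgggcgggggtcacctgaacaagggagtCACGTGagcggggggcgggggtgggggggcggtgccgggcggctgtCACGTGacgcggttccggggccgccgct

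TATATA was found once before IGFBP3, 30 to 25 bases ahead of the start, and TATAAA once before IGFBP4, 29 to 24 bases ahead of it. Both motifs were searched on both strands. TATAAA occurs in 10.7% and TATATA in 3.73% of the 35116 RefSeq promoter windows of this length. These letters were in none of the windows of IGF1R, IGF2R, INSR, IGFBP5, IGFBP6 or IGFBP2. The share of G and C was 81.2% for IGF1R, 79.2% for IGF2R, 78.4% for INSR, 76.0% for IGFBP3, 71.6% for IGFBP4 and 61.2% for IGFBP5 and for IGFBP6, all above the median of 58.0% for all windows. For the windows of IGFBP2 it was 56.8%, 69.2% and 56.4%, in part below that median. GGGCGG, the core of the GC box, was found on either strand 6 times before IGF2R, 4 times before INSR, 2 times each before IGF1R and IGFBP3, 1 time each before IGFBP4 and IGFBP6 and 0 times before IGFBP5. The windows of IGFBP2 held 1, 1 and 0 copies. GGGCGG was found at least once in 42.6% of all windows.

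The IGF2R window held CACGTG 3 times, starting 132, 74 and 28 bases ahead of the start, and each copy lay within the longer palindrome TCACGTGA. At least 3 copies of CACGTG were found in 0.0797% of all windows, and at least 3 copies of TCACGTGA in 4 windows, those of IGF2R, BAX, DVL2 and RAD9A. Both motifs are their own reverse complement. As background, TFEB and its relatives bind such palindromes before many lysosomal genes. These motifs were chosen after the sequences had been seen, and a match is a description of the letters only.

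IGFBP3, the main carrier of IGFs in blood, changed most among these 4 DEGs. The 231-BR libraries gave 70.40, 69.94 and 69.48 FPKM, and the parental libraries 13.13, 14.19 and 14.12 FPKM. All 231-BR values lay far above the highest parental value, and the means were 69.9 ± 0.460 and 13.8 ± 0.593 FPKM, a ratio of 5.06. The log2 fold change was 2.33 (95% confidence interval 2.25 to 2.41, adjusted p = 1.3e-11 from limma), above that of 97.4% of all genes tested. By level, IGFBP3 went from rank 5060 of all genes in MDA-MB-231 cells to rank 1131 in 231-BR cells.

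IGFBP1, a binding protein known for its control by insulin in the liver, is the tested gene next to IGFBP3, which lies at chr7:45912245-45921874 on the minus strand in GENCODE release 29 (GRCh38). IGFBP1 lies at chr7:45888357-45893668 on the plus strand, and 18576 bases separate them. IGFBP1 had 21.02, 20.62 and 19.56 FPKM in 231-BR libraries against 9.80, 9.19 and 10.02 FPKM in parental libraries, with no overlap. The log2 fold change of 1.07 (95% confidence interval 0.97 to 1.17, adjusted p = 1.1e-08 from limma) was just past the fold criterion and fell to 0.98 after quantile normalization, which left 3 of the 9 genes as DEGs. The ratio of IGFBP3 to IGFBP1, computed within each library so that a scaling of the library cancels out, ran from 3.35 to 3.55 in 231-BR and from 1.34 to 1.54 in parental cells. Around the pair, the next gene beyond IGFBP1, TBRG4, had a log2 fold change of -0.12, and the next beyond IGFBP3, TNS3, had one of 0.91. The median of the 40 neighbouring genes, 20 on either side, was -0.02 for IGFBP3 and -0.04 for IGFBP1.

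IGFBP4, a binding protein that mostly withholds IGFs until pappalysin cuts it, was the most expressed of the 9 genes in both lines. The 231-BR libraries had 454.89, 469.07 and 469.98 FPKM and the parental libraries 207.14, 207.78 and 222.62 FPKM. Every 231-BR value was more than 2 times the highest parental value, and the ratio of the means was 2.19, a log2 fold change of 1.13 (95% confidence interval 1.06 to 1.20, adjusted p = 5.2e-10 from limma). This placed IGFBP4 at rank 142 of all genes in 231-BR cells and at rank 322 in parental cells. The gene lies at chr17:40443461-40457731 on the plus strand. Its 40 neighbours had a median log2 fold change of 0.33, 31 of them above 0, while the gene before it, TOP2A, had -0.08.

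IGFBP7, which binds IGFs weakly and is found in the matrix around vessels, was the next in level. It had 157.96, 159.10 and 156.20 FPKM in 231-BR libraries against 52.80, 59.40 and 56.38 FPKM in parental libraries. The lines were clearly apart, with a ratio of means of 2.81 and a log2 fold change of 1.49 (95% confidence interval 1.40 to 1.57, adjusted p = 3.5e-10 from limma). IGFBP7 lies at chr4:57030773-57110385 on the minus strand, where the median of the 40 neighbours was 0.53 and 35 of them were above 0. Of its 1930 exonic bases, 94 are shared with the antisense gene IGFBP7-AS1, and 270 also belong to exons of POLR2B on the opposite strand. Strand was not stated to be used in counting, so reads of these bases cannot be assigned to either gene. POLR2B had a log2 fold change of 0.37.

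IGFBP6, which prefers IGF2 over IGF1, differed less. The 231-BR libraries gave 17.16, 19.06 and 18.07 FPKM, and the parental libraries 11.88, 11.95 and 12.45 FPKM. The values did not overlap, and the log2 fold change was 0.58 (95% confidence interval 0.48 to 0.68, adjusted p = 9.5e-07 from limma), short of the fold criterion. IGFBP6 lies at chr12:53097436-53102345 on the plus strand, and its neighbours leaned the other way, with a median of -0.17 and 14 of 40 above 0. The genes on either side, SPRYD3 and CSAD, had log2 fold changes of -0.72 and -0.57.

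IGFBP5, the most conserved of the family and a binding protein of bone and muscle, was barely expressed. It had 0.59, 0.57 and 0.45 FPKM in 231-BR libraries and was listed at 0 in all 3 parental libraries. No fold is given for it, since the fitted value depends on the pseudocount. IGFBP5 passed the filter on low values only through the 231-BR libraries, so its place among the 8 higher genes is no support for that count, and it did not reach the level criterion of 1 FPKM in either line. IGFBP5 lies at chr2:216672105-216695525 on the minus strand, 7668 bases from IGFBP2, and 298 of its 6442 exonic bases are shared with an antisense gene.

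**Figure D2:**
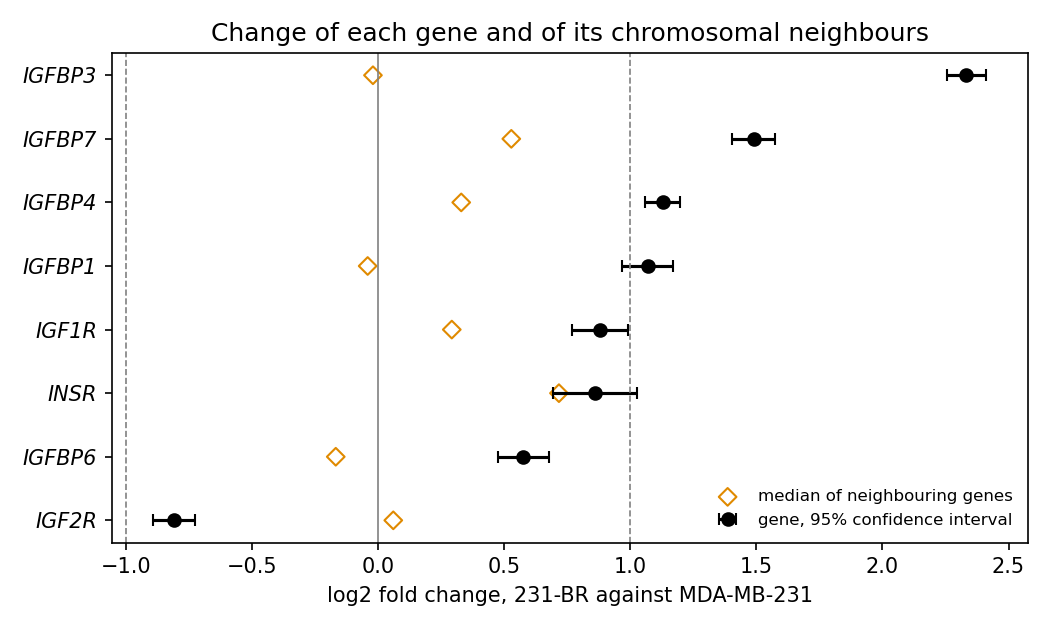
Log2 fold change of 231-BR against MDA-MB-231 cells for 8 genes (black points, with the 95% confidence interval from limma) and the median log2 fold change of the up to 40 neighbouring genes on the chromosome (open diamonds); dashed lines mark the fold criterion of 1 in either direction. IGFBP5 is left out because it is listed at 0 FPKM in MDA-MB-231 cells, and for INSR the neighbours' median of 0.72 lies within the interval of the gene.

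The receptor kinases were lower in level than most binding proteins. IGF1R had 9.77, 9.28 and 9.40 FPKM in 231-BR libraries and 5.22, 5.21 and 4.89 FPKM in parental libraries, without overlap. This gave a ratio of means of 1.86 and a log2 fold change of 0.88 (95% confidence interval 0.77 to 0.99, adjusted p = 8.1e-08 from limma), so that it missed the fold criterion. IGF1R lies at chr15:98648539-98964530 on the plus strand, near the end of the chromosome, where 37 neighbours could be used, with a median of 0.29.

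INSR had 2.74, 2.98 and 2.74 FPKM in 231-BR libraries, and all 3 parental libraries lay lower, between 1.49 and 1.53 FPKM. The ratio of the means was 1.87, and the log2 fold change was 0.86 (95% confidence interval 0.69 to 1.03, adjusted p = 2.3e-06 from limma). It fell to 0.53 after quantile normalization and to 0.61 with a pseudocount of 1. INSR lies at chr19:7112255-7294034 on the minus strand, in a region in which most genes were higher: the median of its 40 neighbours was 0.72, and the genes on either side, ZNF557 and ARHGEF18, had 0.93 and 0.77. Values per gene do not separate the A and B isoforms of the insulin receptor.

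For the balance of these receptors no difference between the lines was found. The ratio of IGF1R to INSR was 3.57, 3.11 and 3.43 in 231-BR libraries and 3.41, 3.47 and 3.28 in parental libraries. The values overlapped, and the difference of the means was -0.019 with an exact 2-sided permutation p of 0.9. Since this test cannot give a p below 0.1 here, it could not have called a difference at 0.05. Without each library in turn, the difference ran from -0.117 to 0.109. As a share, IGF1R made up 77.1% ± 1.24 of the summed FPKM of both receptors in 231-BR and 77.2% ± 0.511 in parental cells.

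IGF2R went the other way. It had 12.39, 11.81 and 11.60 FPKM in 231-BR libraries and 21.31, 21.04 and 20.54 FPKM in parental libraries. Every 231-BR value lay below every parental value, and the log2 fold change was -0.81 (95% confidence interval -0.89 to -0.72, adjusted p = 2.2e-08 from limma). Only 6.47% of all genes tested had a lower log2 fold change. IGF2R lies at chr6:159969099-160113507 on the plus strand, where the median of the 40 neighbours was 0.06. The ratio of IGF2R to IGF1R was 1.26 ± 0.0211 in 231-BR and 4.11 ± 0.0838 in parental libraries, which did not overlap. With 3 libraries against 3, the exact 2-sided permutation test cannot give a p below 0.1, which is the value it gave for this ratio. The ratios of IGF2R to IGF1R, of IGFBP3 to IGFBP1 and of the binding proteins to the receptor kinases, and the share of IGF1R, were added after the values had been seen.

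The order of the 9 genes by level differed between the lines. In 231-BR cells it was IGFBP4, IGFBP7, IGFBP3, IGFBP1, IGFBP6, IGF2R, IGF1R, INSR and IGFBP5. In MDA-MB-231 cells IGF2R was the third, ahead of IGFBP3, and IGFBP6 stood ahead of IGFBP1. No neighbours in either order had overlapping libraries.

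Summed over the 6 binding proteins, expression came to 722, 738 and 734 FPKM in 231-BR libraries and 295, 303 and 316 FPKM in parental libraries. IGFBP3 took 9.56% ± 0.161 of the sum in 231-BR and 4.54% ± 0.131 in parental cells. IGFBP7 took 21.6% ± 0.295 against 18.5% ± 1.01. IGFBP4 held the largest share in both lines, 63.5% ± 0.525 in 231-BR against 69.8% ± 1.00 in parental cells, so its share was smaller in 231-BR cells although its level was higher. IGFBP6 had 2.47% against 3.98% and IGFBP1 2.79% against 3.18%. None of these 5 shares overlapped between 231-BR and parental libraries, and the exact 2-sided permutation p was 0.1 for each, the smallest that 3 against 3 allows. Relative to the summed FPKM of IGF1R and INSR, the binding proteins were 57.7 to 60.4 times as high in 231-BR and 43.7 to 49.5 times as high in parental libraries.

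**Figure D3:**
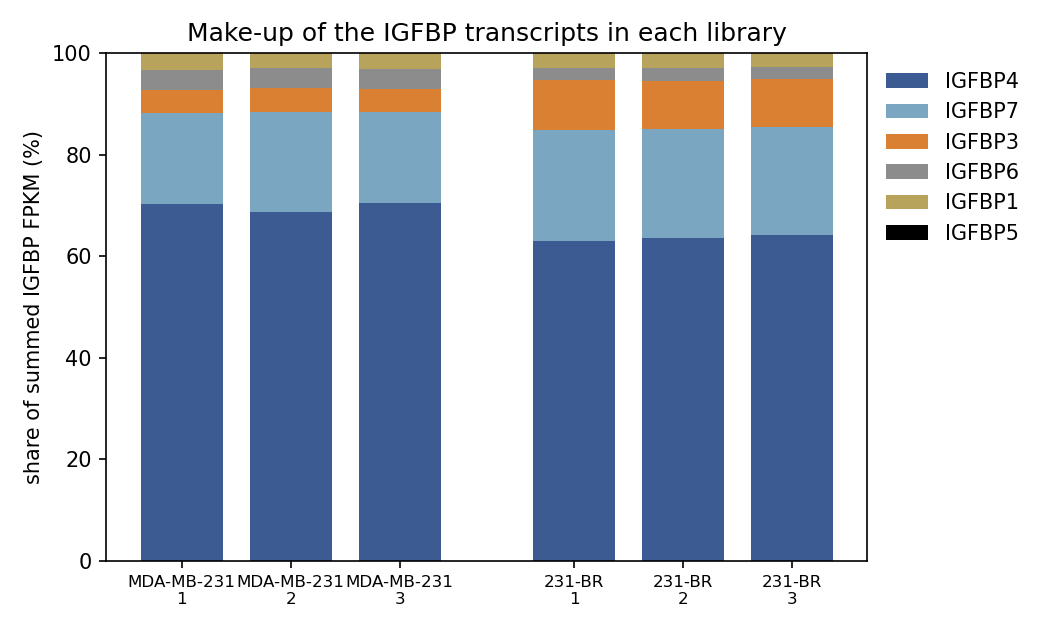
Share of each binding protein gene in the summed IGFBP FPKM of each library, in percent; each bar is 1 library, 3 of MDA-MB-231 on the left and 3 of 231-BR cells on the right. The share of IGFBP3 is larger in every 231-BR library, at 9.47% to 9.75% against 4.45% to 4.69%, and IGFBP5 is too small to be seen.

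Genes that act with the binding proteins and receptors were followed in 8 lists. Their counts are to be read beside all genes tested, of which 44.4% were called higher and 32.9% lower. DEGs made up 4.68% higher and 1.77% lower, and the median log2 fold change was 0.08. The ligands were almost silent. IGF2 had 0.49, 0.41 and 0.40 FPKM in 231-BR libraries and 0.35, 0.43 and 0.37 FPKM in parental libraries. These values overlapped, and the log2 fold change was 0.14 (95% confidence interval -0.18 to 0.46, adjusted p = 0.38 from limma). IGF1 was not tested, with at most 0.05 FPKM in any library.

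Of 13 genes related to the binding proteins by sequence or, as IGFALS, by binding to them, 9 were tested, and 6 were higher and 1 lower in 231-BR cells, with a median log2 fold change of 0.51. DEGs were ESM1, an endothelial proteoglycan core, NOV, a matricellular protein, and IGFBPL1, an IGFBP-like protein. ESM1 had 50.3 ± 1.58 FPKM in 231-BR and 3.79 ± 0.178 FPKM in parental cells, and NOV had 26.8 ± 0.0874 against 2.79 ± 0.233 FPKM. IGFBPL1 had 14.0 ± 0.430 against 3.63 ± 0.119 FPKM, which is a log2 fold change of 1.91 (adjusted p = 3.1e-10 from limma). The 1 lower gene was HTRA3, a secreted serine protease, at 0.233 against 1.42 FPKM. HTRA3, the genes named below to complete a count of 5 or fewer, and PAPPA, STC1, M6PR, GNPTG, NAGPA, IRS1, IRS2, TSC2, FOXO1, FOXO3 and the IGF2 mRNA-binding proteins were chosen after their values were seen. ESM1, and below MMP1, CAV1, ITGB1 and SOCS2, are among genes the study itself picked from these libraries.

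Of the 12 proteases that cut binding proteins and the stanniocalcins that inhibit pappalysin, 10 were tested, and 3 were higher (MMP1, PAPPA and STC1) and 5 lower (CTSD, ADAM9, ADAM12, MMP3 and STC2). The median log2 fold change was -0.25. The collagenase MMP1 was a DEG with 1962 ± 37.0 FPKM in 231-BR against 43.0 ± 0.722 FPKM in parental cells, and ADAM12, a membrane-anchored protease, had 0.173 against 0.80 FPKM. CTSD, the lysosomal protease cathepsin D, was a DEG in the other direction, at 58.2 ± 1.87 against 164 ± 7.86 FPKM, or 2.82 times as high in parental cells (adjusted p = 2.8e-10 from limma). PAPPA, the pappalysin that cuts IGFBP4, stayed low, at 0.357 ± 0.0416 against 0.107 ± 0.00577 FPKM. Its inhibitor STC1 had 12.8 ± 0.652 FPKM in 231-BR and 6.96 ± 0.172 FPKM in parental cells, with a log2 fold change of 0.87.

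Of 7 cell surface partners of the binding proteins, 6 were tested, with 3 higher (LRP1, PTPRZ1 and CAV1) and 2 lower (ITGA5 and ITGB1) and a median log2 fold change of 0.54. CAV1, the caveolar coat protein, was the DEG of this list, at 342 ± 1.42 FPKM in 231-BR against 160.4 ± 0.693 FPKM in parental cells. LRP1, an endocytic receptor, had 1.61 ± 0.0351 against 0.273 ± 0.0379 FPKM, and PTPRZ1, a receptor phosphatase, 0.443 ± 0.0666 against 0.0867 ± 0.0115 FPKM. ITGA5 and ITGB1, the subunits of the fibronectin receptor, had log2 fold changes of -0.70 and -0.96 (adjusted p = 3.6e-08 and 6.8e-10 from limma).

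In the list of receptor processing and mannose 6-phosphate sorting, 10 of 11 genes were tested, 4 were higher and 4 lower in 231-BR cells, and the median log2 fold change was -0.08. FURIN, a convertase that cuts the precursors of IGF1R and INSR, was a DEG with 7.21 ± 0.204 FPKM in 231-BR and 22.6 ± 0.165 FPKM in parental cells, with a log2 fold change of -1.63 (adjusted p = 1.6e-10 from limma). PCSK5, another convertase, had 2.63 ± 0.110 against 0.583 ± 0.0751 FPKM. GNPTAB, which encodes subunits of the enzyme that makes the mannose 6-phosphate tag, was a DEG just past the fold criterion, at 1.00. M6PR, the cation-dependent mannose 6-phosphate receptor, had 40.2 ± 0.673 against 69.3 ± 1.15 FPKM. Its log2 fold change of -0.79 (95% confidence interval -0.84 to -0.73, adjusted p = 2.2e-09 from limma) lay next to the -0.81 of IGF2R. The palindrome CACGTG, found before IGF2R, was also found before M6PR, GNPTG and NAGPA, 3 of the 9 genes of this list that had a promoter window, and before CTSD. At least 1 copy was found in 6.34% of all windows. This share is per window, whereas the 3 of 9 are genes, and a gene can have several windows. Of the genes named with the palindrome, GNPTG had a log2 fold change of 0.22 (adjusted p = 0.0031 from limma) and NAGPA one of 0.03 (adjusted p = 0.63 from limma), and CTSD and M6PR were lower. In the other lists the motif was found before TSC2, with a log2 fold change of 0.43 (adjusted p = 7.6e-06 from limma), and IGF2BP3, with one of -0.35 (adjusted p = 5.9e-06 from limma). Of the genes with a window, it was found before 0 of 14 adaptors and feedback genes, 0 of 8 IGFBP-related genes, 0 of 6 cell surface partners and 0 of 1 ligand.

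Of 18 receptor adaptors and feedback genes, 17 were tested, 9 were higher, 4 lower and 4 not called, and the median log2 fold change was 0.15. IRS1 and IRS2, substrates of the receptor kinases, were higher, with log2 fold changes of 0.33 for IRS1 and 0.56 for IRS2 (adjusted p = 2.5e-05 and 1.9e-06 from limma). The 4 lower genes were SHC1, SOS1, SOCS3 and SOCS6. Among them SHC1 had 51.2 FPKM in 231-BR and 65.7 FPKM in parental cells, with a log2 fold change of -0.36 (adjusted p = 6.2e-07 from limma). SOCS2, a feedback inhibitor best known from growth hormone signalling, was the DEG of the list, at 23.0 ± 0.626 FPKM in 231-BR against 1.74 ± 0.156 FPKM in parental cells. GRB14, an adaptor that inhibits INSR, had 1.79 ± 0.0872 against 0.567 ± 0.107 FPKM.

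Downstream, 21 of the 22 genes of the PI3K, AKT, FOXO and mTOR core were tested, 11 were higher, 5 lower and 5 not called, with a median log2 fold change of 0.17. PIK3R2 and PIK3R3, which encode regulatory subunits of PI3K, were among the DEGs, with log2 fold changes of 1.04 and 1.29 (adjusted p = 2.9e-10 and 9.7e-07 from limma). Of the FOXO factors, which AKT inhibits, FOXO4 rose from 0.387 to 1.53 FPKM while FOXO1, at 1.32 against 2.07 FPKM, and FOXO3, at 8.74 against 11.0 FPKM, were lower in 231-BR cells. Of the IGF2 mRNA-binding proteins, which share only their name with the binding proteins, IGF2BP2 was higher and IGF2BP3 lower, with log2 fold changes of 0.15 and -0.35.

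**Figure D4:**
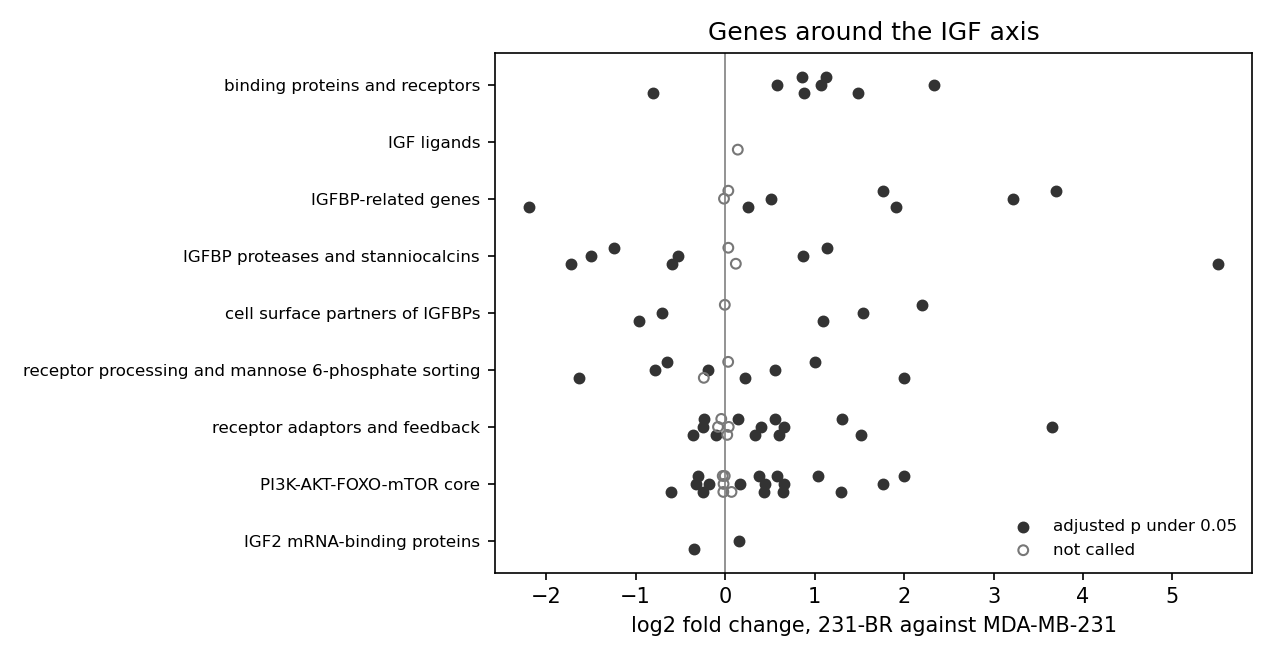
Log2 fold change of 231-BR against MDA-MB-231 cells for each tested gene of the lists around the IGF axis and, in the top row, for 8 of the binding proteins and receptors; filled points had an adjusted p under 0.05 from limma and open points did not. HTRA1 belongs to 2 lists, and the point farthest to the right is MMP1, at 5.51.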

How the data were processed

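RNA sequencing of 6 libraries was analysed, 3 of each line, grouped by the titles of the samples; the label for the cell line counts up with the replicate number and was not used. The authors filtered the reads, aligned them with HISAT2 2.0.4 to the genome (GRCh38.p12 in the submitters' processing notes) and with Bowtie2 2.2.5 to a gene set, and deposited FPKM per gene with 2 decimals and no further scaling. The annotation release and the FPKM program are not given in the sources used here. Counts were not used, and no step of whole reads could be read from the low values, so depth is unknown. The files of single libraries equalled the columns of the common table for 6 of 6 libraries. The 25 symbols that had turned into dates were restored by gene identifier.

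The log2(FPKM + 0.1) values of genes that averaged 0.1 FPKM or more were fitted with limma 3.58.1 in R 4.3.3 with 1 term for the line (eBayes with a trend, Benjamini-Hochberg adjustment over 13465 genes). The study names a count model, which could not be run on FPKM. Shares and ratios were computed within libraries and compared by exact 2-sided permutation tests. Gene places came from GENCODE release 29, promoters and gene order from RefSeq (GRCh38.p14). The fit was tested on simulated data in which few genes changed, whereas 77.3% of the genes tested here were called. The genes, the lists and the rule for named genes (all binding proteins and receptors, both ligands, and in each other list the DEGs and the 2 called genes with the largest change) were chosen with earlier results of these data known. Other pseudocounts, filters, scalings and fits, and each library left out, were tried as alternatives. A single result that the rule covers is not reported here.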

Additional observations from a re-analysis of the deposited data

How the results depend on the processing

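The counts of 8 higher and 1 lower gene among the binding proteins and receptors were the same under the other pseudocounts, without a filter, under both scalings, the fit without a trend, the replicate block and each library left out; with a filter at a mean FPKM of 1, IGFBP5 was not tested and 7 were higher. The DEG count was 4 in all of these except quantile normalization (3, without IGFBP1), 4 with each library left out, and 1 with an absolute log2 fold change over 1.5. The direction of each fitted change held under every alternative run. Quantile normalization moved the median of all genes tested from 0.08 to -0.06, the share of higher genes among those called from 57.4% to 45.6% and among the DEGs from 72.6% to 53.3%. The fitted value of IGFBP5 ran from 0.62 with a pseudocount of 1 to 5.76 with one of 0.01.

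Without IGFBP7 in the sum, the difference in share, 231-BR minus MDA-MB-231, was 6.62 percentage points for IGFBP3, -4.66 for IGFBP4, 0.094 for IGFBP5 and -1.72 for IGFBP6. With each library left out it ran from 4.93 to 5.10 for IGFBP3 and from -6.88 to -5.95 for IGFBP4. With a filter at a mean FPKM of 1, 3 proteases or stanniocalcins were called lower, 0 IGFBP-related genes were lower and 1 cell surface partner was higher, all because genes of low level were no longer tested. Of the IGFBP-related genes, 2 were lower after median-of-ratios scaling and 2 after quantile normalization, which also gave 10 higher and 8 lower genes in the PI3K list. Under quantile normalization, receptor processing and sorting had 3 higher and 6 lower genes, and the adaptors and feedback genes 7 and 6. It also gave 7 lower proteases or stanniocalcins. Median-of-ratios scaling gave 6 lower adaptors and feedback genes and 6 lower genes in the PI3K list. Without a filter, 2 IGF2 mRNA-binding proteins were higher.

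Libraries of the same number did not deviate together (correlations of 0.087, -0.040 and -0.106 for replicates 1, 2 and 3), so the numbers were not taken as pairs. With the replicate block, 8 binding proteins and receptors were higher and 1 lower, and the calls over all genes went from 10406 to 10502. FPKM with 2 decimals limits what can be read from IGF1, IGFBP5 and PAPPA.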
